A study of Mus musculus with 36 samples.

Results

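The genes examined here are 39 that build the centromere and kinetochore of the mouse or run the spindle checkpoint. They were listed by name, with earlier results of these data known. All 39 were found among the 23845 gene symbols of the deposited expected-count table, 38 under the listed symbol and 1, the shugoshin listed as Sgol2a, as Sgol2 through a synonym. RNA had been sequenced from 36 libraries of mouse embryos at the 2-cell (2C) or the 8-cell (8C) stage, each holding 4 to 5 pooled embryos and amplified with the low-input cDNA kit SMART-seq v4. The labels give 6 groups, namely VP64 8C (7 libraries), KRAB 2C (6), Ctrl 8C (6), Ctrl 2C (7), NI 8C (6) and NI 2C (4). The study's title concerns the activation of LINE-1 retrotransposons after fertilisation, and its protocol text says only that embryos were injected. VP64 is the name of a known transcriptional activator domain and KRAB that of a known repressor domain. What Ctrl embryos received, what NI stands for, and the strain and age in hours of the embryos are not stated in the sources used here. VP64 was sequenced at the 8C stage and KRAB at the 2C stage, so the 2 constructs cannot be set against each other at 1 stage. Nothing in the labels says that pools of a group came from separate matings or injection days, so every p-value refers to spread among pools only, and that spread may be technical.

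The kinetochore is the protein assembly on which each chromosome is pulled apart in mitosis. It rests on nucleosomes that carry CENP-A and on the constitutive centromere-associated network, and its outer layer, made of the KNL1, MIS12 and NDC80 complexes, grips spindle microtubules. Kinetochores without a microtubule recruit the spindle checkpoint proteins, which hold back the anaphase-promoting complex, while the chromosomal passenger complex corrects wrong attachments and shugoshins protect cohesin at the centromere. The first cleavages of the mouse embryo begin with messages stored in the egg, many of which are degraded around the 2-cell stage as the embryo's own genome is switched on. In pooled embryos, fewer embryos or cells with a message and less of it per cell cannot be told apart.

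Library totals ran from 1043740 to 13583527 counts, and 38 or 39 of the 39 genes had counts in every library. The stage labels were set against marker genes. The summed level of 12 oocyte genes was 67.5 to 499.5 CPM (counts of a gene relative to the library's scaled total) over the 19 8C libraries, against 2729 to 22396 CPM over the 17 2C libraries, with no overlap. The 12 markers of the 8-cell embryo summed to 1703 to 4092 CPM at 8C, against 190 to 3763 CPM at 2C, so that some 2C libraries reached 8C levels. The 12 genes of the 2-cell embryo did not separate the stages by their sum (710 to 2753 CPM at 8C, against 847 to 3550 CPM at 2C), although edgeR called 9 of them lower at 8C in NI, and 10 lower and 2 higher in Ctrl. Of 13 markers of cumulus and granulosa cells, 9 were at 0 in all Ctrl 8C libraries, 7 in NI 8C and 5 in VP64 8C. At 2C, 2 were at 0 in Ctrl (Amh and Foxl2, also at 0 in Ctrl 8C), 2 in KRAB and 3 in NI. The sum of the 13 was 0 to 349 CPM at 8C and 3.09 to 372 CPM at 2C. The 7 sperm markers summed to at most 1.99 CPM at 8C and 20.9 CPM at 2C. Their part in the stage differences below was not tested. Of the 8C libraries, 2 stood apart by low scaling factors, Ctrl 8C replicate 6 (0.502, 9672 genes detected) and VP64 8C replicate 7 (0.623, 11343 genes detected).

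Promoters are shown first for genes that the stage comparisons below turn on. A promoter was given by RefSeq (GRCm38.p6) for 34 of the 39 genes. In dividing cells many mitotic genes carry the cell cycle homology region, TTTGAA or TTCGAA, bound by the MuvB complexes, together with CCAAT boxes, bound by NF-Y. In the 250 bases before the start, on either strand, CCAAT stood in 18 of 34 genes (52.9%) against 37.5% of all 27025 genes with a promoter, the cell cycle homology region in 7 (20.6%) against 19.6%, and the E2F-like TTGGCGC or TTCGCGC in 1 (2.94%, Cenpl) against 3.66%. Among the 17491 protein-coding genes with a promoter the shares were 39.5%, 18.4% and 4.73% in the same order. These differences were not tested. A CCAAT read on the other strand, ATTGG, can overlap TTGGCGC. The 120 bases before the start are printed, in the direction of transcription, for 4 genes with a match there, of which Cenpm and Zwint were higher at 8C in both treatments and Mis12 and Cdca8 lower. Capitals mark TTCGAA in Cenpm and CCAAT or its complement ATTGG in the other 3.
Cenpm, chr15:82244337-82244456, minus strand: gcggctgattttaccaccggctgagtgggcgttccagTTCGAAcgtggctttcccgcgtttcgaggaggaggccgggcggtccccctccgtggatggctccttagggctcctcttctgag
Zwint, chr10:72654726-72654845, plus strand: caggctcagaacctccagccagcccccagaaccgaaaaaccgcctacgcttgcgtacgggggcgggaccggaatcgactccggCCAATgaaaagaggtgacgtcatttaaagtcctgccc
Mis12, chr11:71019491-71019610, plus strand: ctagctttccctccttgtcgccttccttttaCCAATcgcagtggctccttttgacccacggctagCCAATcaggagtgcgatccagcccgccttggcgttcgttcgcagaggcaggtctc
Cdca8, chr4:124936918-124937037, minus strand: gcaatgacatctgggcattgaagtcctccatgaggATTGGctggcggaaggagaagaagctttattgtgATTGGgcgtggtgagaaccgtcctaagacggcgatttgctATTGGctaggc
CCAAT stood in 2 of the 3 genes higher at 8C in both treatments and in 3 of the 6 lower in both, and the cell cycle homology region in 1 and 0 of them. CCAAT thus stood in genes called in both directions. Among these genes the calls of Zwint, Ndc80, Cdca8, Casc5 and Cenpf were lost under some alternatives, as given below.

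Per kb of exon, the most abundant of the 39 messages at 8C were Spc24, a subunit of the NDC80 complex, and Birc5 (survivin), the passenger complex subunit that reads a histone mark at the centromere. In NI 8C they stood at 129.6 ± 70.5 and 122 ± 56.8 CPM per kb (SD, n = 6), within each other's spread. In NI 2C the order began with Cdca8 (borealin), the passenger subunit that binds the nucleosome, at 103 ± 17.2 CPM per kb, followed by Spc25 at 100.1 ± 79.8 and Birc5 at 99.3 ± 38.7 (SD, n = 4), which did not differ beyond their spread. Cenpb, which binds a sequence box in centromeric satellite DNA, was the lowest of the 39 in both groups. Its counts summed to 18 over the 6 NI 8C libraries and 35 over the 4 NI 2C libraries, it passed no filter on low counts, and it was not tested. The other 38 genes were tested in every comparison. Cenpi had no count in NI 2C replicate 3.

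**Figure D1:**
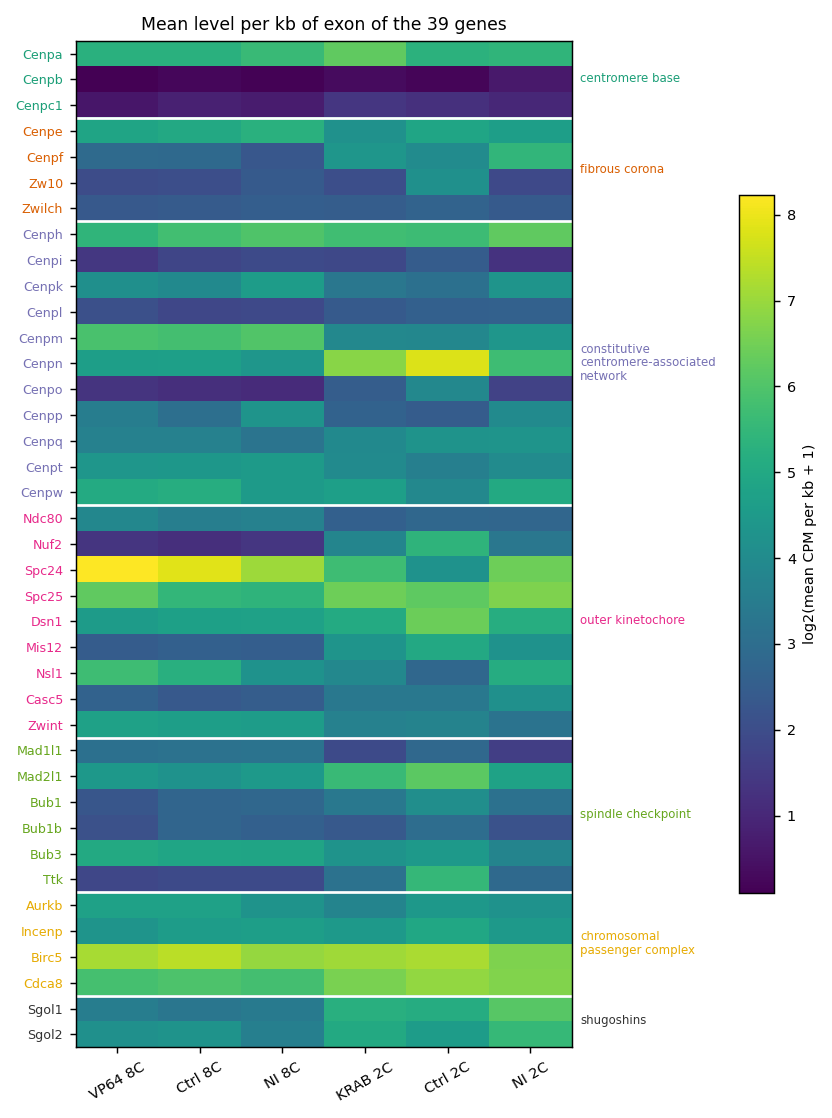
Mean level of each of the 39 genes per kb of exon, as log2(CPM per kb + 1), in the 6 groups (columns; 8C groups left of 2C groups), with genes grouped by role down the page. Spc24 and Birc5 are bright across the 8C columns, Cenpb is dark throughout, and Nuf2, Cenpn and Ttk are brightest in Ctrl 2C.

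The stage comparisons asked how this machinery changes between the 2C and the 8C embryo, in NI and in Ctrl separately. In NI, edgeR's quasi-likelihood test with Benjamini-Hochberg adjustment over all genes called 13 of the 38 genes at 0.05, which is 34.2% against 49.9% of all 13158 genes tested. Of these 4 were higher at 8C and 9 lower, against backgrounds of 18.5% and 31.4%. In Ctrl it called 19 of 38, 50% against 61.5% of all genes, with 6 higher and 13 lower, against 22.5% and 39%. In both treatments the share of kinetochore and checkpoint genes called lay below that of all genes, a difference that was not tested. The median log2 fold change of the 38 was -0.30 in NI and -0.36 in Ctrl, while that of all genes was -0.47 and -0.51. With the size factors of DESeq2 the medians of all genes moved to -0.72 and -0.70 and those of the 38 genes to -0.49 and -0.51. With a fit on the NI libraries alone they were 0.09 for all genes and -0.15 for the 38, and the share of all calls that were higher was 49% instead of 37.1%.

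The NI and the Ctrl stage comparison share no library. The change had the same sign in both for 29 of the 38 genes, and 9 were called in both, all in the same direction. Called lower at 8C in both were Nuf2, Mis12, Casc5, Cenpf, Sgol1 and Cdca8, and called higher in both were Cenpm, Zwint and Ndc80. A further 4 genes were called in NI alone, 10 in Ctrl alone and 15 in neither. Some of these gained calls under an alternative test, normalization or set of libraries, as given below. Over all genes 5328, or 40.5%, were called in both in the same direction.

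**Figure D2:**
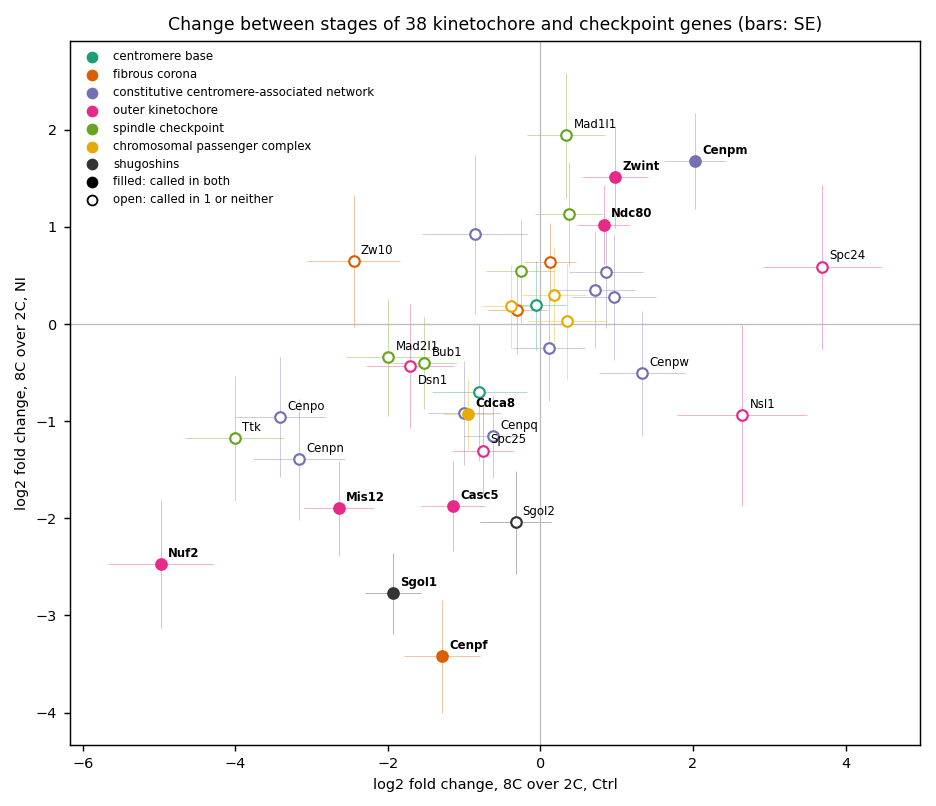
Log2 fold change between stages (8C over 2C) in NI (vertical axis) against Ctrl (horizontal axis) for the 38 tested genes, with bars of 1 SE, coloured by role. Filled points are the 9 genes called in both treatments; Nuf2, Sgol1 and Cenpf lie far to the lower left, and Spc24 and Nsl1 lie far right with values near or below 0 in NI.

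At the base of the centromere, Cenpa, the histone variant that marks it, did not change by the test. Its median was 255 CPM in NI 8C (139 to 544), against 181, 367, 181 and 255 CPM in the 4 NI 2C libraries, and 208 CPM in Ctrl 8C (119 to 314), against 201 CPM in Ctrl 2C (120 to 419). The log2 fold changes were 0.19 ± 0.46 in NI and -0.06 ± 0.39 in Ctrl (SE). Cenpc1, which links CENP-A nucleosomes to the network, was scarce, with a median of 3.99 CPM in NI 8C and 4.88 CPM in NI 2C. It shares 11.8% of its 31-base words with other genes, so its counts are uncertain.

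In the constitutive centromere-associated network, 11 genes were tested. Of these 18.2% were called in NI and 36.4% in Ctrl, against 49.9% and 61.5% of all genes, differences that were not tested. Only Cenpm was called in both treatments, where 40.5% of all genes were called in both in the same direction. Cenpm, a subunit of the CENP-HIKM subcomplex that resembles a small GTPase, had 50.6, 66.9 and 217 CPM in NI 8C (lowest, median and highest), against 44.9, 36.9, 16.5 and 29.4 CPM in the NI 2C libraries. In Ctrl 8C it had 54.3, 87.8 and 131 CPM, against 13.4, 19 and 40.2 CPM in Ctrl 2C. Every 8C library lay above every 2C library of its treatment. The log2 fold changes were 1.68 ± 0.50 in NI (adjusted p = 0.00490) and 2.03 ± 0.41 in Ctrl (adjusted p = 6.16e-05).

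Cenpn, which reads the CENP-A nucleosome, and Cenpo, a subunit at the outer edge of the network, were called lower at 8C in Ctrl alone. Cenpn had 3.43, 61.7 and 197 CPM in Ctrl 8C, against 134, 608 and 2109 CPM in Ctrl 2C (log2 fold change -3.17 ± 0.60, adjusted p = 2.65e-05). In NI it had 20.2, 53.5 and 135 CPM at 8C, against 91.7, 237, 209 and 139 CPM at 2C (-1.39 ± 0.62, adjusted p = 0.0604). The NI value missed the threshold with all 6 of the 8C libraries below the 2C median. It was called lower with the size factors of DESeq2 (adjusted p = 0.0272), with DESeq2 (adjusted p = 0.0207) and with limma-voom (adjusted p = 0.00678). Cenpo had a median of 11.0 CPM in Ctrl 8C and 130 CPM in Ctrl 2C (-3.41 ± 0.59), with a 2C range of 6.87 to 209 CPM. Of its exon bases 22.5% overlap Adcy3 and Ptrhd1 on the opposite strand, and the labels do not say that the kit marks strand, so reads of these genes cannot be told apart there.

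Of the other network genes, Cenpw, the partner of Cenpt on centromeric DNA, was called higher in Ctrl (1.33 ± 0.56) and had -0.51 ± 0.64 in NI. The Ctrl call of Cenpw was lost without Ctrl 8C replicate 6 (0.39, adjusted p = 0.542), without any 1 of the Ctrl 2C libraries other than replicate 6, and with DESeq2 (adjusted p = 0.0737). Cenpq, a subunit of the same subcomplex as Cenpo, was called lower in NI (-1.15 ± 0.43) and had -0.63 ± 0.38 in Ctrl. Without NI 2C replicate 4 its NI value was -0.75 (adjusted p = 0.169). Its Ctrl value was called lower by DESeq2 (-0.81, adjusted p = 0.0427) and limma-voom (-1.28, adjusted p = 0.000923). Cenph, Cenpi, Cenpk, Cenpl, Cenpp and Cenpt were called in neither treatment by edgeR on all libraries. DESeq2 called Cenpl lower in both (adjusted p = 0.0462 for NI, 0.0112 for Ctrl). Limma-voom called Cenpl lower in NI (adjusted p = 0.00795), and Cenpk (adjusted p = 0.0333) and Cenpt (adjusted p = 3.78e-05) higher in Ctrl.

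In the outer kinetochore 6 of 9 genes were called in NI (66.7%, against 49.9% of all genes) and 8 of 9 in Ctrl (88.9%, against 61.5%), differences from the background that were not tested. The calls ran in both directions. The NDC80 complex joins an Ndc80-Nuf2 dimer, which binds the microtubule, to an Spc24-Spc25 dimer, which binds the inner kinetochore. Nuf2 had 2.01, 11.3 and 18.4 CPM in NI 8C (lowest, median and highest), against 24.0, 67.2, 78.4 and 61.6 CPM in the NI 2C libraries. In Ctrl 8C it had 2.16, 9.84 and 12.6 CPM, against 32.4, 352 and 477 CPM in Ctrl 2C. The stages did not overlap in either treatment, and the log2 fold changes were -2.47 ± 0.66 in NI (adjusted p = 0.00210) and -4.98 ± 0.69 in Ctrl (adjusted p = 1.25e-07). Its dimer partner Ndc80 moved the other way. Ndc80 had 30.2, 78.7 and 137 CPM in NI 8C, against 31.4, 46.3, 23.7 and 49.7 CPM in NI 2C, and 47.0, 68.0 and 94.5 CPM in Ctrl 8C, against 23.8, 41.2 and 54.4 CPM in Ctrl 2C. The stages overlapped in both treatments, with log2 fold changes of 1.02 ± 0.41 (adjusted p = 0.0350) and 0.83 ± 0.34 (adjusted p = 0.0324). The call of Ndc80 was lost in both treatments with the size factors of DESeq2 (adjusted p = 0.0802 for NI, 0.0679 for Ctrl). It was also lost in both with only the libraries compared (adjusted p = 0.0728 for NI, 0.104 for Ctrl). The NI call was lost with no filter on low counts (adjusted p = 0.0530), and without any 1 NI 2C library or NI 8C replicate 1, 2 or 4. The Ctrl call was lost without any 1 Ctrl 2C library other than replicate 6, or Ctrl 8C replicate 1 or 2.

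Spc24 and Spc25 also differed from each other. Spc24 had 171, 476 and 1294 CPM in Ctrl 8C, against 15.7, 22.0 and 178 CPM in Ctrl 2C, a log2 fold change of 3.70 ± 0.78 (adjusted p = 9.84e-05). In NI it had 96.3, 407 and 511 CPM at 8C, against 634, 33.3, 205 and 15.2 CPM at 2C, and was not called (0.59 ± 0.84). The NI 2C libraries ran from below the lowest to above the highest 8C library. Limma-voom, which weights libraries, called Spc24 higher in NI (2.56, adjusted p = 0.00235). Spc25 was called lower in NI, with 55.6, 133 and 201 CPM at 8C, against 175, 367, 78.4 and 656 CPM at 2C (-1.30 ± 0.46, adjusted p = 0.0183), and had -0.75 ± 0.41 in Ctrl. Without NI 2C replicate 4, the library at 656 CPM, the NI value of Spc25 was -0.82 (adjusted p = 0.151). Its Ctrl value was called lower by DESeq2 (-0.96, adjusted p = 0.0237).

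The MIS12 complex, the bridge between inner and outer kinetochore, held calls of both directions in Ctrl, while in NI Mis12 alone of its 3 genes named here was called. Mis12 had 5.63, 11.6 and 33.3 CPM in NI 8C, against 41.8, 57.6, 49.6 and 65.5 CPM in NI 2C. In Ctrl 8C it had 4.57, 12.9 and 33.2 CPM, against 32.4, 87.9 and 152 CPM in Ctrl 2C. The stages did not overlap in NI, and in Ctrl the highest 8C library lay just above the lowest 2C library. The log2 fold changes were -1.90 ± 0.49 (adjusted p = 0.00162) and -2.64 ± 0.46 (adjusted p = 6.87e-06). Dsn1, which is phosphorylated by Aurora B to open the complex for binding, was called lower in Ctrl (-1.71 ± 0.58) and had -0.43 ± 0.64 in NI. Nsl1 was called higher in Ctrl, with a median of 156 CPM at 8C and 17.4 CPM at 2C (2.65 ± 0.85, adjusted p = 0.00719), and had -0.94 ± 0.93 in NI. Its NI 2C libraries stood at 504, 20.4, 188 and 11.7 CPM, high in the same libraries as Spc24.

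Casc5, the mouse KNL1, is the scaffold on which the Bub proteins gather. It had 18.6, 39.6 and 61.9 CPM in NI 8C, against 75.1, 98.6, 45.3 and 366 CPM in NI 2C, and 25.7, 33.6 and 50.9 CPM in Ctrl 8C, against 32.5, 73.1 and 158 CPM in Ctrl 2C. The stages overlapped, and all 8C libraries lay below the 2C median of their treatment (-1.87 ± 0.47 in NI, adjusted p = 0.00108; -1.15 ± 0.42 in Ctrl, adjusted p = 0.0164). Without NI 2C replicate 4, the library at 366 CPM, the NI value was -0.98 (adjusted p = 0.0671), and without Ctrl 2C replicate 6 the Ctrl value was -0.89 (adjusted p = 0.0549). Without Ctrl 8C replicate 5 the Ctrl value was -1.0 (adjusted p = 0.0522).

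Zwint, which binds KNL1 and helps recruit the ZW10 complex, had 68.8, 97.5 and 154 CPM in NI 8C, against 7.38, 72.0, 10.8 and 53 CPM in NI 2C. In Ctrl it had 65.2, 98.1 and 156 CPM at 8C, against 8.83, 63.1 and 71.6 CPM at 2C. All 8C libraries lay above the 2C median, and the log2 fold changes were 1.51 ± 0.53 (adjusted p = 0.0160) and 0.98 ± 0.43 (adjusted p = 0.0457). The Ctrl call did not hold under DESeq2 (adjusted p = 0.0876), limma-voom (adjusted p = 0.0796) or without any 1 of the 7 Ctrl 2C libraries, Ctrl 8C replicate 1 or Ctrl 8C replicate 3. Nor did it hold with the size factors of DESeq2 or with only the Ctrl libraries (each adjusted p = 0.105). The NI call was lost without NI 2C replicate 1 (1.17, adjusted p = 0.0714), NI 2C replicate 3 (1.21, adjusted p = 0.0737) or NI 8C replicate 4 (1.24, adjusted p = 0.0558).

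In the fibrous corona, the outermost layer, Cenpf, a large coiled-coil protein that links to dynein, was lower at 8C in both treatments. It had 35.7, 59.6 and 91.3 CPM in NI 8C, against 1203, 246, 981 and 190 CPM in NI 2C, with no overlap (-3.42 ± 0.58, adjusted p = 8.58e-06). In Ctrl it had 40.1, 58.0 and 307 CPM at 8C, against 132, 207 and 456 CPM at 2C (-1.29 ± 0.50, adjusted p = 0.0237). The Ctrl library at 307 CPM is replicate 6, 1 of the 2 with a low scaling factor, and without it the change was -2.11 (adjusted p = 0.000316). Without Ctrl 2C replicate 6 it was -1.05 (adjusted p = 0.0624), and without any 1 of the other 5 Ctrl 8C libraries it also missed the threshold.

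Zw10, the subunit of the RZZ complex that brings dynein to kinetochores, was called lower in Ctrl alone, with 4.00, 9.82 and 21.1 CPM at 8C, against 5.89, 78.7 and 122 CPM at 2C (-2.45 ± 0.61, adjusted p = 0.000664). In NI its value was 0.65 ± 0.68. Zwilch, of the same complex, was called in neither treatment, and Cenpe, the kinesin that moves chromosomes to the spindle equator, had 0.64 ± 0.40 in NI and 0.13 ± 0.34 in Ctrl.

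Of the 6 spindle checkpoint genes edgeR called 16.7% in NI and 50% in Ctrl, against 49.9% and 61.5% of all genes. No gene of the 6 was called in both treatments, against 40.5% of all genes. In Ctrl, Ttk (the kinase MPS1, which starts the signal), Mad2l1 (MAD2, which binds and holds CDC20) and Bub1 (a kinase that marks the centromere for shugoshin) were called lower at 8C. Ttk had 6.09, 13.5 and 21.1 CPM in Ctrl 8C, against 22.6, 211 and 425 CPM in Ctrl 2C, with no overlap (-4.01 ± 0.65, adjusted p = 1.92e-06). In NI it had 5.63, 15.1 and 21.8 CPM at 8C, against 17.8, 16.3, 64.0 and 28.4 CPM at 2C, and was not called (-1.18 ± 0.65, adjusted p = 0.125). The NI value was called lower with the size factors of DESeq2 (-1.54, adjusted p = 0.0458) and with DESeq2 (-1.55, adjusted p = 0.0424). The 8C ranges of the treatments overlapped, and 5 of the 7 Ctrl 2C libraries lay above all 4 of NI 2C.

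Mad2l1 had -2.0 ± 0.55 in Ctrl and -0.34 ± 0.60 in NI, and Bub1 had -1.52 ± 0.42 in Ctrl and -0.40 ± 0.47 in NI. Mad1l1 (MAD1, the anchor of MAD2) was the 1 checkpoint gene called in NI, higher at 8C with 7.94, 29.8 and 49.6 CPM, against 1.85, 14.4, 3.59 and 10.1 CPM at 2C (1.94 ± 0.65, adjusted p = 0.0118). Bub3, which carries the Bub proteins to KNL1, had 1.13 ± 0.54 in NI (adjusted p = 0.0766) and 0.38 ± 0.45 in Ctrl. Without NI 2C replicate 2 edgeR called Bub3 higher in NI (1.86, adjusted p = 0.00859). Bub1b (BUBR1, part of the inhibitor of the anaphase-promoting complex) was called in neither.

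Of the 4 genes of the chromosomal passenger complex 25% were called in each treatment. The shares of all genes were 49.9% in NI and 61.5% in Ctrl. Of that complex only Cdca8 was called. It had 215, 275 and 379 CPM in NI 8C, against 645, 568, 468 and 457 CPM in NI 2C, and 205, 309 and 440 CPM in Ctrl 8C, against 483, 611 and 826 CPM in Ctrl 2C. The stages did not overlap in either treatment, with log2 fold changes of -0.92 ± 0.37 (adjusted p = 0.0342) and -0.95 ± 0.33 (adjusted p = 0.0112). With no filter on low counts, which adds genes to the adjustment, the call was lost in both (adjusted p = 0.124 for NI, 0.0523 for Ctrl). The NI call was also lost without NI 2C replicate 1 (adjusted p = 0.0851), NI 8C replicate 3 (adjusted p = 0.0706) or NI 8C replicate 6 (adjusted p = 0.0953), and with only the NI libraries (adjusted p = 0.179). The other members of the complex, the kinase Aurkb, its scaffold Incenp and Birc5, had log2 fold changes between -0.39 and 0.35 in both treatments and were not called.

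Sgol1, the shugoshin that guards centromeric cohesin in mitosis, fell in both treatments. It had 32.6, 34.3 and 54.1 CPM in NI 8C, against 412, 123, 308 and 200 CPM in NI 2C, and 21.3, 32.7 and 49.2 CPM in Ctrl 8C, against 83.5, 98.1 and 225 CPM in Ctrl 2C. No 8C library reached the lowest 2C library. The log2 fold changes were -2.77 ± 0.41 (adjusted p = 1.10e-06) and -1.93 ± 0.37 (adjusted p = 2.92e-05). Sgol2, the shugoshin that guards cohesin in meiosis, was called lower in NI, with 59.6, 67 and 124 CPM at 8C, against 531, 219, 289 and 250 CPM at 2C (-2.04 ± 0.53, adjusted p = 0.00165), and had -0.33 ± 0.46 in Ctrl. Without the 2 libraries of low scaling factor the Ctrl value of Sgol2 was -0.99 (adjusted p = 0.0440). Of its exon bases 35.0% overlap Kctd18 on the opposite strand, so its counts are uncertain.

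**Figure D3:**
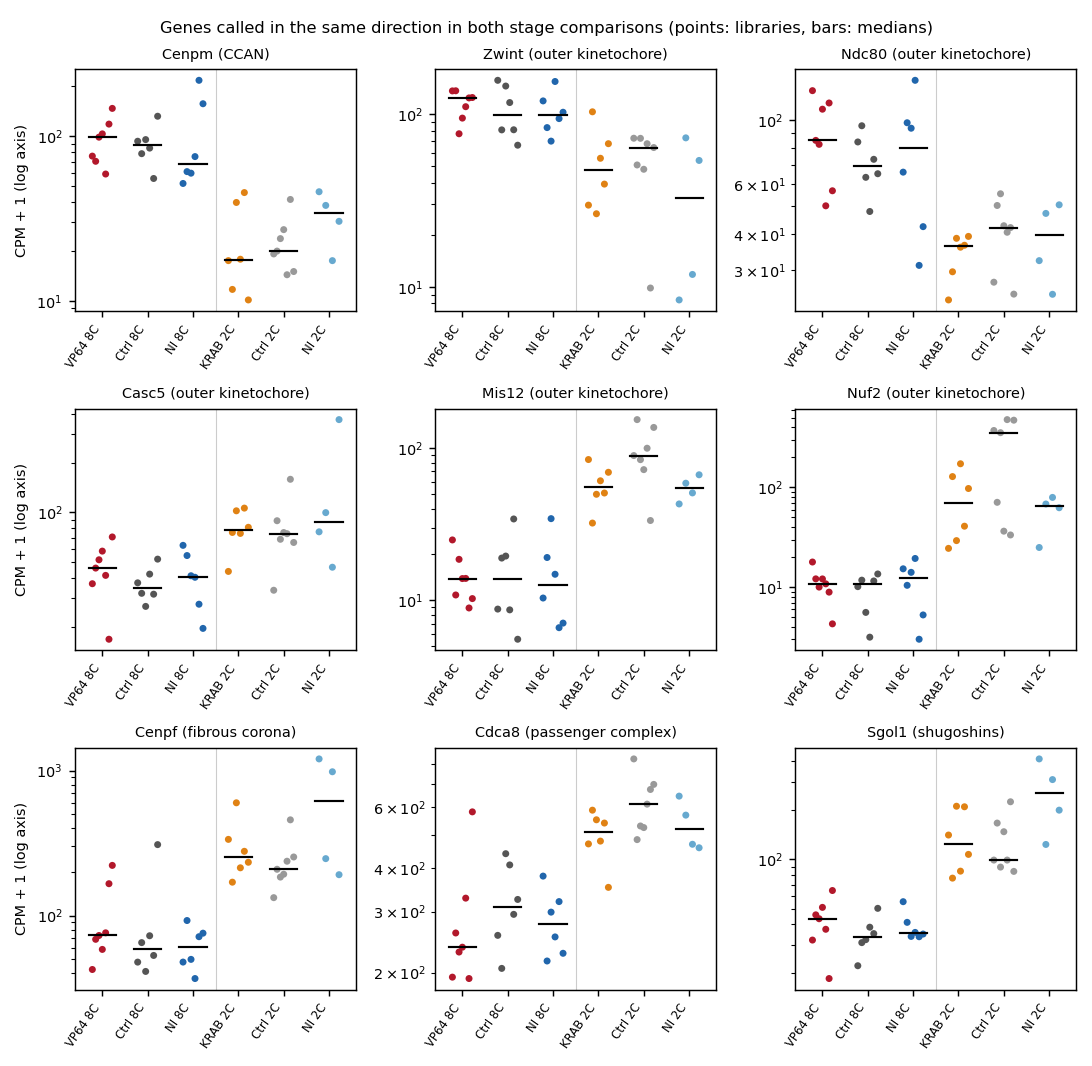
CPM + 1 on a log axis in each of the 36 libraries (points) with group medians (bars), 8C groups left and 2C groups right, for the 9 genes called in the same direction in both stage comparisons. For Nuf2, Sgol1 and Cdca8 no NI or Ctrl library at 8C reaches the lowest 2C library of its treatment, while Ndc80, Zwint and Casc5 overlap.

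Whether the stage change differed between Ctrl and NI was tested as an interaction over all 36 libraries. No gene passed (0 of 38, background 0% of 13158), while 10 of the 38 and 20.4% of all genes had an unadjusted p under 0.05. The smallest p-values were those of Zw10 (-3.10 ± 0.92, adjusted p = 0.0943), Ttk (-2.83 ± 0.90, adjusted p = 0.101) and Cenpf (2.13 ± 0.74, adjusted p = 0.114), on the log2 scale, Ctrl minus NI. DESeq2 called 4 of the 38, 2 higher and 2 lower, and 693 of all 11918 genes it tested. Limma-voom called 6, 1 higher and 5 lower, and 3600 of all 13158 genes. Without Ctrl 2C replicate 6, edgeR called 8 of the 38 and 1098 of all 13140 genes tested. Of the 8, Spc24, Nsl1, Cenpf and Sgol2 were higher and Zw10, Ttk, Cenpo and Nuf2 lower. Without Ctrl 2C replicate 4 it called 1 of the 38, Zw10 (adjusted p = 0.0499), and 265 of all 13125 genes tested. A gene called in only 1 treatment was therefore not shown to differ between treatments by the test on all libraries. The interaction uses the libraries of both stage comparisons, and its 2C libraries also serve the comparisons within 2C below. The values of a gene across these comparisons are not support of one another.

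Ctrl 2C replicate 6 stood apart from the other 6 Ctrl 2C libraries in several of these genes. It had the lowest total of all libraries, 1043740 counts, the lowest Zw10 (5.89 CPM, others 17.1 to 122), Ttk (22.6, others 34.2 to 425), Cenpo (6.87, others 17.1 to 209) and Dsn1 (23.5, others 143 to 529), and the highest Spc24 (178, others 15.7 to 48.4) and Nsl1 (140.3, others 5.82 to 20.9). Its 8-cell marker sum was 3413 CPM (others 190 to 1270) and its oocyte marker sum 17712 CPM (others 2729 to 11245). In NI 2C, replicates 1 and 3, which were high in Spc24 and Nsl1, had 8-cell marker sums of 2028 and 2686 CPM and oocyte marker sums of 9916 and 22396 CPM, against 849 and 361 CPM and 4565 and 2848 CPM in replicates 2 and 4. KRAB 2C replicate 1 had the highest 8-cell marker sum of any 2C library, 3763 CPM (other KRAB 628 to 1204), and the highest Spc24 (449 CPM, others 26.6 to 153) and Nsl1 (294 CPM, others 6.0 to 89.1) of its group. The oocyte marker sum of that KRAB library was 9489 CPM (other KRAB 5331 to 12349). These 4 libraries also had the fewest genes detected of any at 2C. The numbers were 12174 in Ctrl replicate 6, 12711 in KRAB replicate 1, and 13462 and 13187 in NI replicates 1 and 3 (others at least 13730). Whether pools labelled 2C differ in stage, or their libraries in quality, cannot be read from the labels. The part of these differences in the results was not tested.

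The other genes of the pathway were taken from a list of 70 in the table, of which 69 were tested. In NI 17 were called higher and 13 lower, 43.5% of the 69 against 49.9% of all genes, and in Ctrl 12 higher and 23 lower, 50.7% against 61.5%. Called in both treatments were 9 higher and 13 lower, 31.9% of the 69 against 40.5% of all genes, and none in opposite directions. These shares lay below those of all genes, a difference that was not tested. Among the 21 genes of the anaphase-promoting complex and its targets, 7 were called higher and 0 lower in NI (33.3%, against 49.9% of all genes called and 18.5% called higher), and 4 higher and 5 lower in Ctrl (42.9%, against 61.5% of all genes called), differences that were not tested. Anapc10 and Anapc11, subunits of the complex, rose, with Anapc11 at 152 CPM in NI 8C against 31.3 CPM in NI 2C (2.28 ± 0.48) and 138 CPM in Ctrl 8C against 29.2 CPM in Ctrl 2C (2.26 ± 0.39). Ube2c, its ubiquitin-conjugating enzyme, was the most abundant of the named pathway genes at 1757 CPM in NI 8C and 466 CPM in NI 2C (1.91 ± 0.52), with 1.74 ± 0.42 in Ctrl. Trip13, the ATPase that opens MAD2 to silence the checkpoint, rose by 2.48 ± 0.72 in NI and 2.74 ± 0.59 in Ctrl.

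Of the 11 further kinetochore subunits of that list, 0 were called higher and 4 lower in NI (36.4%, against 31.4% of all genes called lower), and 0 higher and 5 lower in Ctrl (45.5%, against 39%). The shares called lower were near those of all genes. Knstrn, a partner of astrin at the spindle and kinetochore, averaged 26.2 CPM in NI 8C and 259 CPM in NI 2C (-3.31 ± 0.49), and 19.6 CPM in Ctrl 8C and 774 CPM in Ctrl 2C (-5.31 ± 0.51). Ska2, of the complex that follows shortening microtubules, fell by 3.02 ± 0.56 in NI and 1.81 ± 0.50 in Ctrl, and Cenpv by 4.92 ± 0.76 and 4.63 ± 0.72. Of the other pathway genes, 3 more were named as called lower in both. They were Clasp1, which promotes microtubule growth at plus ends, Ppp2r5c, a regulatory subunit of the phosphatase PP2A, and Wapal, which releases cohesin from chromosomes.

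KRAB embryos were compared with Ctrl and with NI embryos at 2C, and Ctrl with NI. These comparisons share their libraries in pairs, so their values are given side by side and not as support of one another. No gene was called by edgeR in any of the 3 (0 of 38, background 0% of 11799 genes tested). At an unadjusted p under 0.05 there were 5 of the 38 for KRAB against Ctrl (15.6% of all genes), 2 for KRAB against NI (3.12%) and 13 for Ctrl against NI (23.4%). The median SE of a log2 fold change of the 38 genes was 0.50 for KRAB against Ctrl, 0.58 for KRAB against NI and 0.56 for Ctrl against NI.

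For KRAB against Ctrl the smallest p-values were those of Zw10, Ttk and Cenpa. Zw10 had 5.22, 10.8 and 17.5 CPM in KRAB 2C (lowest, median and highest), against 5.89, 78.7 and 122 CPM in Ctrl 2C (log2 fold change -2.21 ± 0.52, adjusted p = 0.222). Ttk had 12.2, 35.5 and 65.5 CPM in KRAB 2C, against 22.6, 211 and 425 CPM in Ctrl 2C (-2.22 ± 0.62, adjusted p = 0.222). For both genes all 6 KRAB libraries lay below the Ctrl median, and Ctrl 2C replicate 6 lay within the KRAB range. Without that library edgeR called both lower (each adjusted p = 0.0498, log2 fold change -2.33 for Zw10 and -2.34 for Ttk), with 159 of all 11844 genes tested. Cenpa had 235, 419 and 684 CPM in KRAB 2C, against 120, 201 and 419 CPM in Ctrl 2C (1.10 ± 0.44, adjusted p = 0.260). DESeq2 called Zw10 (adjusted p = 0.00852) and Ttk (adjusted p = 0.0279) lower, among 222 of all 13095 genes it tested. Limma-voom called 12 of the 38, 4 higher and 8 lower, among 5252 of all 11799 genes.

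For KRAB against NI the same 2 genes lay close together. Zw10 stood at 6.77, 13.2, 11.5 and 10.2 CPM and Ttk at 17.8, 16.3, 64.0 and 28.4 CPM in the NI 2C libraries, all within the KRAB range of the same gene. The smallest p-values were those of Cenpp (-1.51 ± 0.53), Cenpf (-1.25 ± 0.59) and Sgol1 (-1.0 ± 0.52), each with an adjusted p of 0.998. Without NI 2C replicate 1 Cenpf had -0.65 and Sgol1 -0.58. Cenpp, a network subunit, had 2.60, 11.2 and 27.5 CPM in KRAB 2C, against 57.2, 15.4, 30.2 and 49.3 CPM in NI 2C, with overlap. Of its exon bases 12.6% overlap Aspn and Ippk on the opposite strand. DESeq2 and limma-voom called 0 of all genes.

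For Ctrl against NI at 2C, Zw10 had 2.36 ± 0.62 (adjusted p = 0.121), Cenpp -1.95 ± 0.51 (adjusted p = 0.121) and Ttk 2.43 ± 0.74 (adjusted p = 0.125). Of the 7 Ctrl libraries 6 lay above the NI median for Zw10 and for Ttk, and 7 below it for Cenpp. Without Ctrl 2C replicate 6, edgeR called 11 of the 38, with 1374 of all 11844 genes tested. Of the 11, 3 were higher (Zw10, Ttk and Cenpo) and 8 lower (among them Nsl1, Spc24, Sgol1 and Sgol2). That fit kept NI 2C replicates 1 and 3, which were high in Spc24 and Nsl1. Their 8-cell marker sums were 2028 and 2686 CPM. The part of these 2 libraries in the lower calls was not tested. DESeq2 called 6 of the 38, 4 higher and 2 lower, among 1068 of all 13838 genes it tested. Limma-voom called 20, 10 higher and 10 lower, among 5993 of all 11799 genes. The call of a difference between these 2 groups thus depended on the test and on 1 library.

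VP64 embryos were compared with Ctrl and with NI embryos at 8C, and Ctrl with NI, again with shared libraries. No gene was called by edgeR in any of the 3 (0 of 38, background 0% of 9850 genes tested). At an unadjusted p under 0.05 there were 1 of the 38 for VP64 against Ctrl (3.99% of all genes), 3 for VP64 against NI (7.17%) and 1 for Ctrl against NI (4.36%). DESeq2 called 1, 22 and 1 of all genes in the 3 comparisons and limma-voom 0, 14 and 0, in each case with 0 of the 38. The median SE of the 38 genes was 0.40, 0.40 and 0.42, lower than at 2C.

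Spc25 had 169, 181 and 473 CPM in VP64 8C, against 74.3, 126 and 243 CPM in Ctrl 8C (log2 fold change 0.77 ± 0.37, adjusted p = 0.999) and 55.6, 133 and 201 CPM in NI 8C (0.89 ± 0.37, adjusted p = 0.672). All 7 VP64 libraries lay above both medians, with overlap in both cases. Without VP64 8C replicate 7, the library with a low scaling factor, the values were 0.51 and 0.62. For VP64 against Ctrl the other small p-values were those of Bub1b (-0.82 ± 0.49) and Bub1 (-0.56 ± 0.38), each with an adjusted p of 0.999. Without Ctrl 8C replicate 5 they were -0.50 and -0.25. For VP64 against NI they were Nsl1, with 82.9, 244 and 781 CPM in VP64 8C and 27, 86.9 and 174 CPM in NI 8C (1.52 ± 0.61), and Spc24 (1.21 ± 0.54), each with an adjusted p of 0.672. Without VP64 8C replicate 6 Nsl1 had 0.96 and Spc24 0.65. That library stood apart, with Spc24 at 2254 CPM (other VP64 288 to 774), an outer kinetochore sum of 3543 CPM (other VP64 960 to 1806) and the cumulus and granulosa marker sum of 349 CPM (other 8C libraries at most 11.4), whose part in these values was not tested.

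For Ctrl against NI at 8C the smallest p-values were those of Cenpp (-1.34 ± 0.58), Nsl1 (1.08 ± 0.62) and Sgol2 (0.76 ± 0.48), each with an adjusted p of 1. The NI 8C mean of Cenpp rested on replicate 6 at 188 CPM, and without it the difference was -0.09. Limma-voom, which weights libraries, gave 0.07. Without Ctrl 8C replicate 6 Sgol2 had 0.05 and Nsl1 0.57.

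**Figure D4:**
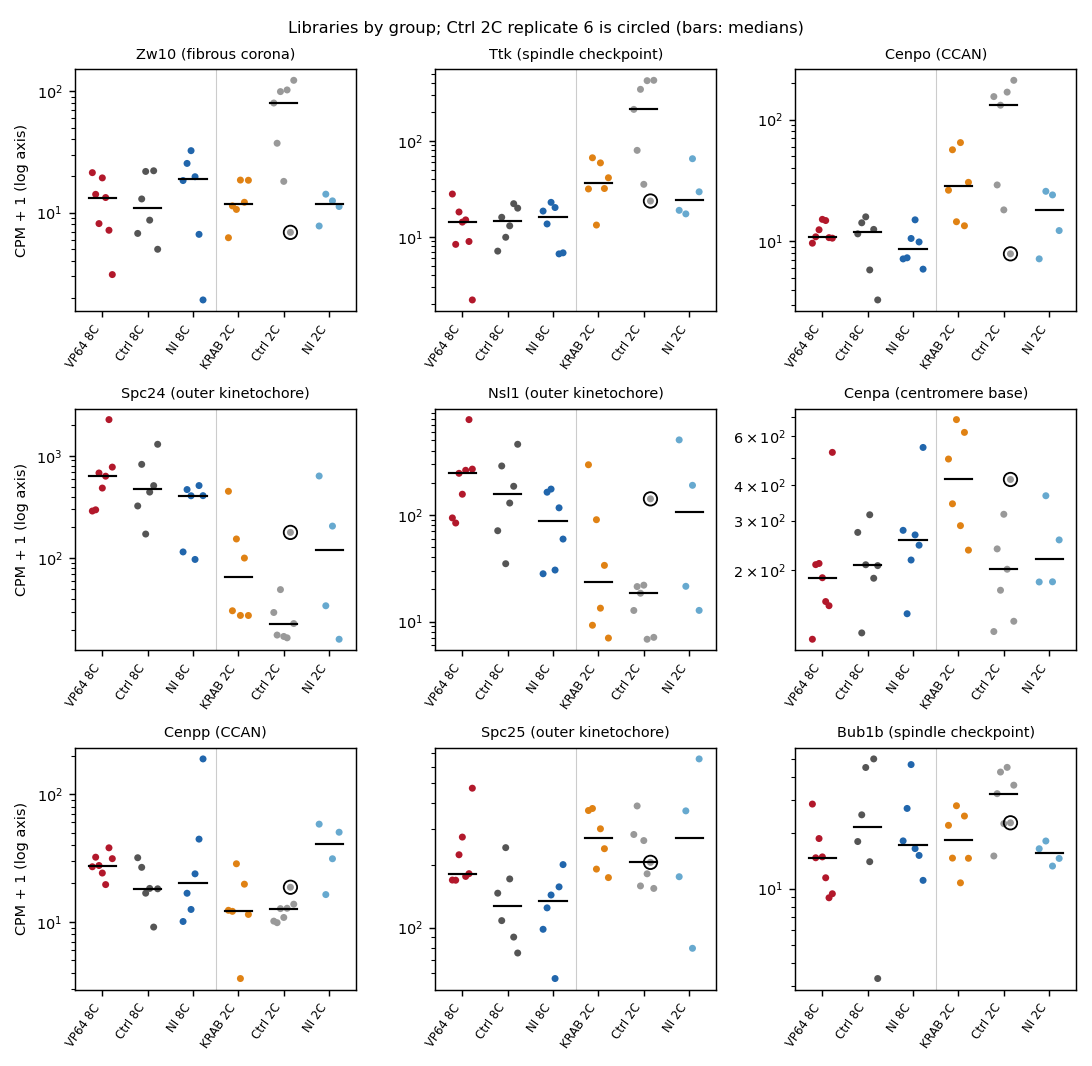
CPM + 1 on a log axis in each of the 36 libraries (points) with group medians (bars) for 9 genes with small p-values in the comparisons within a stage or in the interaction. The circled library, Ctrl 2C replicate 6, lies at 5.89 CPM for Zw10 and 22.6 CPM for Ttk, within the range of the KRAB libraries for both genes, whereas the Ctrl 2C medians are 78.7 and 211 CPM.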

How the data were processed

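RNA was measured in 36 mouse embryo libraries of 6 groups taken from the labels. Replicate numbers follow the accessions and serve as names, without pairing. The deposited values are expected counts per gene symbol, for which the submitters' processing notes name the aligner Bowtie2, the quantifier RSEM and the build mm10, with no versions and no annotation. RSEM splits a read that fits several genes among those genes.

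Expected counts were rounded and tested with edgeR 4.0.16 (limma 3.58.1, R 4.3.3), quasi-likelihood with the robust option, TMM normalization, filterByExpr (minimum count 10, minimum total 15) and Benjamini-Hochberg adjustment over all genes at 0.05. Stage comparisons and their difference were fitted on all 36 libraries, the others on the libraries of 1 stage. CPM use the TMM-scaled total. Spread in log2 fold changes is the SE, in levels the SD. Depth, 1043740 to 13583527 counts, limits the scarce genes, and the reads carry no molecular identifiers, so counting precision is not that of molecules. No pair of replicates agreed within sampling noise (lowest chi-square per degree of freedom 6.92). The pipeline was tested on simulated data.

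The 39 genes, the pathway and marker lists were chosen with earlier results of these data known. Named were all genes called in the same direction in both stage comparisons. In each other comparison the genes called were named or, with none, the 3 of smallest p. Up to 10 other pathway genes, called in the same direction in both stage comparisons, were also named. Others named where all genes are accounted for were chosen after their values were seen. Alternatives were the size factors of DESeq2, DESeq2 1.42.0, limma-voom with quality weights, no low-count filter, only the libraries compared, and each library left out. Leaving out the 2 libraries of scaling factor under 0.7 was chosen after seeing the data. Coordinates and exon lengths are from GENCODE vM21 (GRCm38, the assembly of mm10) and promoters from RefSeq (GRCm38.p6).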

Additional observations from a re-analysis of the deposited data

Results flagged for a closer look

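In the check of every gene and of the summed level in every group of 4 to 7 libraries, 20 of 240 sets held 1 library far from the others, where chance gives about 12 (1 in 20). Ctrl 8C replicate 6 accounted for 6 of them. It was high in the sum of all 39 genes (6282 CPM, others 3477 to 4254), in Birc5 (1357 CPM, others 337 to 510.1) and in Cenpf (307 CPM, others 40.1 to 71.5). It was low in Cenpl (1.71 CPM, others 14.1 to 21.9), Cenpn (3.43 CPM, others 53.8 to 197) and Cenpt (9.72 CPM, others 60.5 to 159).

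Ctrl 2C replicate 6 accounted for 5. It was high in Cenpk (129 CPM, others 18.5 to 33.4) and Nsl1 (140.3 CPM, others 5.82 to 20.9), and low in Dsn1 (23.5 CPM, others 143 to 529), Mad1l1 (0.981 CPM, others 17.5 to 38.8) and Zwint (8.83 CPM, others 47.0 to 71.6). VP64 8C replicate 7 accounted for 4, being high in Bub3 (573 CPM, others 137 to 240.1), Cenpa (523 CPM, others 113 to 211) and Mad2l1 (377 CPM, others 119 to 175), and low in Cenpl (9.28 CPM, others 19 to 22.8).

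The rest came from 4 libraries. KRAB 2C replicate 3 was high in Cenpb (6.22 CPM, others 0 to 0.604) and Cenpe (277 CPM, others 104 to 143). KRAB 2C replicate 1 was low in Cenph (29.6 CPM, others 84.3 to 145), KRAB 2C replicate 6 in the sum of all 39 genes (3457 CPM, others 4734 to 5354), and NI 8C replicate 6 in Aurkb (10.1 CPM, others 41.4 to 74.6).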

How the results depend on the processing

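Counts of kinetochore and checkpoint genes called moved by over 1.5 times in these cases. The 6 called higher at 8C in Ctrl were 3 with the size factors of DESeq2 and 3 with only the Ctrl libraries, and 3 to 7 on leaving out a library. Those higher in NI were 2 to 4 on leaving out a library, against 4. Over all genes 2957 were called higher in Ctrl, against 2656, 2089 and 2488 to 3158 in the same settings. In NI there were 2433, against 1974 to 2519 on leaving out a library. For Ctrl against NI at 2C, with 0 called by edgeR, DESeq2 gave 4 higher and 2 lower, limma-voom 10 and 10, and leaving out a library 0 to 3 and 0 to 8. For the difference of the stage change they were 2 and 2, 1 and 5, and 0 to 4 and 0 to 4. For KRAB against Ctrl, DESeq2 gave 2 lower, limma-voom 4 higher and 8 lower, and leaving out a library 0 to 2 lower. On leaving out a library, these 3 comparisons called kinetochore and checkpoint genes only without Ctrl 2C replicate 6 or 4. Without replicate 4 there was 1 such call. Over all genes, DESeq2, limma-voom and leaving out Ctrl 2C replicate 6 called 1068, 5993 and 1374 for Ctrl against NI at 2C. For the difference they called 693, 3600 and 1098, and for KRAB against Ctrl 222, 5252 and 159. The difference also had 84 calls over all genes without Ctrl 2C replicate 2, and 265 without replicate 4. Cenpp in Ctrl against NI at 8C was 0.069 with limma-voom, the opposite sign to -1.34 with edgeR. The cause of these shifts was not tested. The log2 fold changes of Sgol1, Nuf2, Mis12 and Cenpm between stages kept their call and direction under every alternative run. No paired analysis was possible because the labels give no replicate numbers. Depth limits the scarce genes, among them Cenpb, Cenpc1 and Cenpi.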
